A study of Mus musculus with 12 samples.

Results

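The gene described here is Uchl1 (ENSMUSG00000029223), which codes for ubiquitin C-terminal hydrolase L1. It was selected by name, as 1 of 18604 genes with values in the deposited tables, because its response to pressure overload in earlier results of the same data depended on diet. The levels of Uchl1 across the groups are therefore given as a description, with standard errors and no p-value. RNA came from hearts of male C57Bl/6J mice aged 12 weeks, with 3 libraries in each of 4 groups: BCAA-free TAC, BCAA-free sham, control diet TAC and control diet sham. BCAA-free mice ate food lacking the branched-chain amino acids, and control diet mice ate food holding every essential amino acid, these included, at the level of standard chow. All mice started the assigned diet 4 days before surgery. Transverse aortic constriction (TAC) narrows the aorta and loads the left ventricle, with sham surgery as its control. The diets went on for 1 week after surgery, until the hearts were collected. Nothing in the labels says that the libraries of a group came from separate animals, so the p-values below measure only the spread between these libraries, which may be technical.

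Ubiquitin is a small protein that cells attach to other proteins to send them to the proteasome or to change what they do. Deubiquitinases remove it again, and the C-terminal hydrolases to which Uchl1 belongs cut short adducts and precursors from the end of ubiquitin. Uchl1, also called PGP9.5, is abundant in neurons and is widely used as a stain for nerve fibres, in the heart as in other organs. Work in rodent hearts has also linked Uchl1 in muscle cells to hypertrophic growth, through the stability of the epidermal growth factor (EGF) receptor.

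Uchl1 lies on chromosome 5 of GRCm38 at chr5:66676091-66687234, on the plus strand, as a protein-coding gene with 9 exon blocks and 1632 exonic bases in GENCODE. The 250 bases before its RefSeq start (GRCm38.p6) are shown because an annotated antisense gene, Uchl1os, reaches into them from the minus strand. Capitals mark the 30 bases that lie within both genes, and within an exon of each, in GENCODE.
Uchl1, chr5:66675871-66676120, plus strand: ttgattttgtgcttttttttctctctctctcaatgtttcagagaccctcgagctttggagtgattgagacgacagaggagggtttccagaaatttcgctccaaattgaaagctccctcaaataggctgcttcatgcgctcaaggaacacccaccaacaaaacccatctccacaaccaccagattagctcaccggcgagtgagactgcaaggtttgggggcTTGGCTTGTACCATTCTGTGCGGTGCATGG
The stretch is 48.8% G and C. Both strands were searched for 3 promoter motifs. The TATA box, spelled TATAAA, had 0 matches, and 12.4% of 32851 annotated mouse windows of the same length held it. The CCAAT box had 0 matches, and 33.8% of the windows held it. The GC box, spelled GGGCGG, had 0 matches, and 32.7% of the windows held it. The absence of these letters from the window says nothing about any factor. Uchl1os runs from 66626495 to 66676498, overlaps Uchl1 by 408 bases and shares 295 exonic bases with it. It was not analysed here. The strand setting of the counting is not given in the sources used here, so reads from the shared bases cannot be assigned to 1 of the 2 genes.

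Libraries held 74206246 to 110452636 recovered reads, and levels below are normalized reads, scaled jointly over the 12 libraries. Several libraries stood apart. Leaving out control diet TAC 3 raised the genes called for TAC on the control diet to 4678, against 2710 with all 6 libraries, for diet in TAC hearts to 6025, against 3025, and for the difference of TAC responses to 1755, against 118. Without it the Uchl1 log2 change, described below, was 1.91 for TAC on the control diet, -1.45 for diet in TAC hearts and -1.40 for the difference of TAC responses. Many of the results that rest on it are given with and without it, and member counts without it stand beside these higher totals. Reads of the short structured RNAs Rn7sk, Rmrp and Rpph1 together stood at 63.6 and 76.1 RPM (reads scaled to library size) in libraries 1 and 3 of the BCAA-free TAC group and at 115.5 RPM in control diet sham 2, against 2.06 to 19.3 RPM in the others. Reads of mitochondrially coded genes made up 17.9 to 19.9% of each control diet TAC library and 21.8 to 27.1% of every other library. The part of either class of RNA in the results below was not tested.

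Uchl1 RNA was most abundant in control diet TAC hearts, lower in BCAA-free TAC hearts, and lowest in sham hearts on either diet. In BCAA-free TAC hearts it stood at 986.9, 859.7 and 933.9 normalized reads, a mean of 927 ± 63.9 (SD, n = 3). BCAA-free sham hearts held 671.4, 670.6 and 595.6 normalized reads, a mean of 646 ± 43.6 (SD, n = 3). All 3 BCAA-free TAC libraries lay above all 3 BCAA-free sham libraries, as in 13.4% of all genes tested there, while 14.7% lay below without overlap. In control diet TAC hearts it stood at 2850, 2366 and 1931 normalized reads, a mean of 2382 ± 460 (SD, n = 3). Control diet sham hearts held 708.9, 655.8 and 661.3 normalized reads, a mean of 675 ± 29.2 (SD, n = 3). The lowest control diet TAC library thus lay above the highest library of any other group. Between control diet TAC and sham hearts, 18.5% of genes were higher without overlap and 16.3% lower. Between BCAA-free and control diet TAC hearts, 17% were higher without overlap and 19.2% lower, and between the sham groups, where Uchl1 overlapped, 13.2% and 12.9%. The spread was uneven, and the coefficient of variation was largest in control diet TAC hearts, at 19.3%. In order of level, control diet TAC, BCAA-free TAC and the sham hearts did not overlap, whereas the sham groups overlapped each other. These levels rest on 472 to 3811 recovered reads per library.

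**Figure D1:**
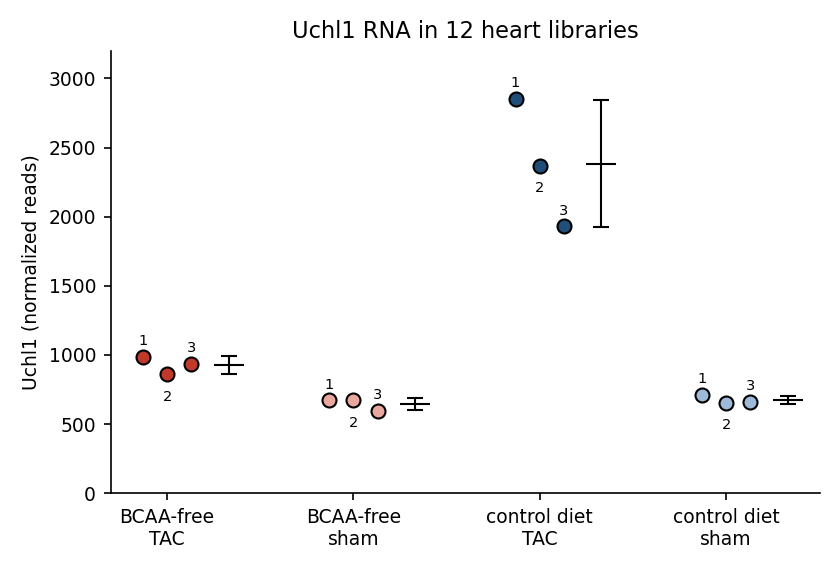
Uchl1 level in each of the 12 libraries in normalized reads (joint TMM scaling), by group. Points are libraries with their replicate number, and the bar beside each group is the mean ± SD of 3 libraries. The control diet TAC libraries sit between 1931 and 2850, above the BCAA-free TAC libraries at 859.7 to 986.9, and all sham libraries lie below both.

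On the control diet, TAC hearts held 3.53 times the mean Uchl1 level of sham hearts, and single TAC libraries held 2.72 to 4.35 times a single sham library. The log2 change was 1.78 ± 0.138 (SE), on the log2(value + 1) scale of the table that holds both groups. On the BCAA-free diet, TAC hearts held 1.43 times the mean of sham hearts, with library ratios of 1.28 to 1.66 and a log2 change of 0.52 ± 0.0913. The log2 response on the BCAA-free diet was 29.0% of that on the control diet. In normalized reads, TAC hearts exceeded sham hearts by 281 on the BCAA-free diet and by 1707 on the control diet.

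Across diets, BCAA-free TAC hearts held 0.389 times the Uchl1 level of control diet TAC hearts, a log2 change of -1.32 ± 0.138. In sham hearts the diets differed by -0.06 ± 0.0906 (BCAA-free minus control diet), less than its standard error. The difference between the log2 responses to TAC was -1.27 ± 0.167 (BCAA-free minus control diet). The authors' deposited table gives log2 fold changes of 1.80 for TAC on the control diet, 0.52 for TAC on the BCAA-free diet, -0.06 for diet in sham hearts and -1.34 for diet in TAC hearts. Each group enters 2 of these 4 pairs, so the values are not independent of one another.

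Other genes put these values in proportion. For TAC on the control diet, 247 of 18305 genes had a higher log2 change than Uchl1, and for TAC on the BCAA-free diet 1056 of 17611 did. For diet in TAC hearts, 520 of 18039 genes had a lower log2 change than Uchl1, and 219 of 17493 did for the difference of TAC responses. The median log2 change over all genes was between -0.02 and 0.02 in all 5 comparisons. Hearts are mixtures of cell types, so more cells that make Uchl1 and more Uchl1 RNA per cell cannot be told apart in these bulk samples.

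Per length, Uchl1 was a middle-ranking deubiquitinase in 3 of the groups and one of the higher ones in control diet TAC hearts. It reached 6.03 ± 0.417 RPKM (reads scaled to exon length and library size) in BCAA-free TAC, 4.26 ± 0.318 in BCAA-free sham, 18.0 ± 3.79 in control diet TAC and 4.51 ± 0.148 in control diet sham hearts (mean ± SD, n = 3). Among the 76 deubiquitinases with values in all 4 tables, these levels ranked 27th, 38th, 10th and 37th in that order. Usp13, a ubiquitin-specific protease, was first in every group, at 36.3 RPKM in BCAA-free TAC, 37.2 in BCAA-free sham, 40.7 in control diet TAC and 37.7 in control diet sham hearts. Per length, Uchl1 was above its relatives Uchl3 (7.29 ± 1.62 RPKM), Uchl5 (8.36 ± 0.655) and Bap1 (10.5 ± 1.17) in control diet TAC hearts and below all 3 in the other groups.

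**Figure D2:**
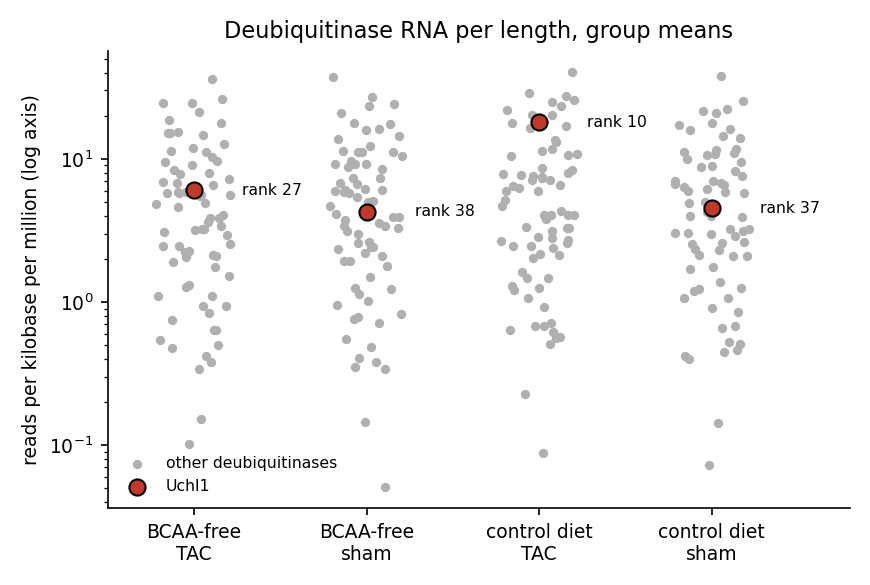
Mean level per length of 76 deubiquitinases in each group, in RPKM on a log axis, with Uchl1 as the large point and its rank beside it. Grey points are the other genes, spread sideways only for legibility. Uchl1 ranks 10th in control diet TAC hearts and 27th to 38th in the other groups.

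Of the 4 listed, Uchl3, Uchl5 and Bap1 were measured, and Uchl4 was not analysed here. With TAC on the control diet, 0 of 3 passed the test (limma, Benjamini-Hochberg adjusted p below 0.05), nor by edgeR or DESeq2, where limma called 14.8% of all 18305 genes, 9.17% higher and 5.64% lower. The log2 changes were -0.16 ± 0.168 for Uchl3, which also cuts the ubiquitin-like protein Nedd8, -0.18 ± 0.109 for the proteasome-bound Uchl5 and -0.23 ± 0.0926 for Bap1, a nuclear enzyme that acts on histone H2A. Unadjusted, 1 of them was below 0.05. With TAC on the BCAA-free diet, where 7.72% of 17611 genes were called (3.31% higher and 4.41% lower), Bap1 alone fell, by 0.21 on the log2 scale (adjusted p = 0.0327). Bap1 stood at 4388, 4253 and 4136 normalized reads in BCAA-free TAC hearts, against 4812, 4970 and 4957 in BCAA-free sham hearts. It passed without BCAA-free TAC 1 but not when any other of the 6 libraries was left out (adjusted p up to 0.114).

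For diet, 0 of the 3 hydrolases were called by limma, edgeR or DESeq2, with Uchl5 in sham hearts (0.16 ± 0.0651) at an unadjusted p below 0.05. In sham hearts 3.54% of 17862 genes were called by limma, 1.27% higher and 2.27% lower. In TAC hearts 16.8% of 18039 were called, 6.23% higher and 10.5% lower. For the difference of TAC responses 0.675% of 17493 were called, 0.171% higher and 0.503% lower. In TAC hearts their log2 changes with the BCAA-free diet were 0.18 ± 0.166 for Uchl3, 0.22 ± 0.109 for Uchl5 and 0.13 ± 0.0927 for Bap1, opposite in sign to that of Uchl1. These counts rest on control diet TAC 3. Uchl3 stood at 1954, 1936 and 2964 normalized reads in control diet TAC hearts, against 2594, 2442 and 2375 in control diet sham hearts, so the third TAC library was above the sham libraries and the other two below them. Without that library, Uchl3 fell by 0.37 (adjusted p = 0.00933) and Uchl5 by 0.28 (adjusted p = 0.0278) with TAC on the control diet. Both were then higher in BCAA-free than in control diet TAC hearts, by 0.39 (adjusted p = 0.00359) and 0.32 (adjusted p = 0.00848), and Uchl3 differed in its TAC response by 0.44 (adjusted p = 0.0136).

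Of the genes that code for ubiquitin, the polyubiquitin gene Ubb and the ribosomal fusion Rps27a are described here, whose products such hydrolases process. Neither was called by limma, edgeR or DESeq2 in any of the 5 comparisons, nor was either below 0.05 unadjusted by limma. The log2 changes with TAC on the control diet were 0.03 ± 0.126 for Ubb and 0.23 ± 0.151 for Rps27a, and on the BCAA-free diet 0.01 ± 0.055 and 0.11 ± 0.0681. In TAC hearts, the BCAA-free minus control diet values were 0.11 ± 0.114 for Ubb and 0.00 ± 0.15 for Rps27a.

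**Figure D3:**
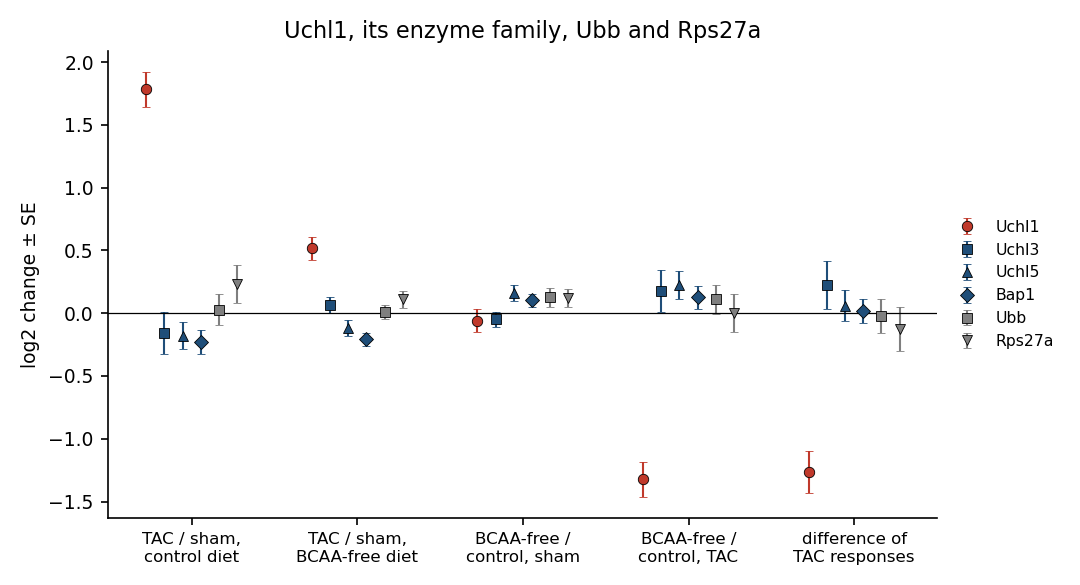
Log2 change ± SE of Uchl1 (circles), the 3 other measured C-terminal hydrolases (blue) and the ubiquitin genes Ubb and Rps27a (grey) in the 5 comparisons. The first group named in each axis label is over the second, and the last comparison is the BCAA-free minus the control diet response. Uchl1 is at 1.78, 0.52, -0.06, -1.32 and -1.27, and the 5 other genes lie between -0.23 and 0.23.

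Of the 72 other deubiquitinases tested, 2 rose and 1 fell with TAC on the control diet, beside 9.17% and 5.64% of all genes. Otulin, which takes apart linear ubiquitin chains, rose by 0.81 ± 0.136 (adjusted p = 0.00564), and Usp18, an interferon-induced enzyme for the ubiquitin-like Isg15, rose by 0.72 ± 0.179 (adjusted p = 0.0277). Otud4 fell by 0.36 ± 0.1 (adjusted p = 0.0415). Without control diet TAC 3, 10 were called, 4 higher and 6 lower, where 4678 of all genes were called, against 2710 with it. Without any 1 of the sham libraries 1 was called, with 1354 of all genes called without sham 3. Otulin passed under every leave-out, but Usp18 failed without control diet TAC 2 or any sham library (adjusted p up to 0.101), and Otud4 passed only without TAC 3.

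With TAC on the BCAA-free diet 1 of the 72 rose and 10 fell, beside 3.31% and 4.41% of all genes. Otulin rose by 0.45 ± 0.0723 (adjusted p = 0.00321). The large proteases Usp9x and Usp34 fell by 0.52 ± 0.0501 (adjusted p = 0.000264) and 0.44 ± 0.0521 (adjusted p = 0.000767). Usp9x stood at 8380, 8387 and 8174 normalized reads in BCAA-free TAC hearts, against 11590, 12189 and 11997 in BCAA-free sham hearts, without overlap. The other 8 falls were between 0.20 and 0.35. The number called went down to 3 without BCAA-free sham 3, where 546 of all genes were called, against 1360 with it. It was 0 when all 12 libraries shared one fit, which called 309 of all genes.

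For diet, 1 of the 72 was called in sham hearts and 2 in TAC hearts, beside 3.54% and 16.8% of all genes. In sham hearts Usp9x was higher on the BCAA-free diet by 0.35 ± 0.0593 (adjusted p = 0.0145), a call lost without any BCAA-free sham library or without control diet sham 3 (adjusted p up to 0.076). In TAC hearts Usp54 was higher by 0.77 ± 0.119 (adjusted p = 0.00277) and Usp18 was lower (-1.02 ± 0.178, adjusted p = 0.00528). Without control diet TAC 3, 10 were called there, 6 higher and 4 lower, where 6025 of all genes were called, against 3025 with it. For the difference of TAC responses 0 of 72 were called by limma, edgeR or DESeq2, with 3 lower at an unadjusted p below 0.05.

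Of 30 activating and conjugating enzymes, limma called 1 higher with TAC on the control diet, beside 9.17% of all genes. It called 1 lower with TAC on the BCAA-free diet and 1 lower for diet in TAC hearts, beside 4.41% and 10.5%. For diet in sham hearts and for the difference of TAC responses 0 were called, beside 3.54% and 0.675%. Ube2c, which serves the anaphase-promoting complex in dividing cells, rose by 1.78 ± 0.238 with TAC on the control diet (adjusted p = 0.00231). Ube2c stood at 81.8, 76.1 and 73.7 normalized reads in BCAA-free TAC hearts, against 592, 522 and 404 in control diet TAC hearts, a log2 change of -2.66 ± 0.181 (adjusted p = 0.000248). Its response to TAC did not differ between diets past the threshold (-1.31 ± 0.393, adjusted p = 0.131), except without control diet TAC 3 (adjusted p = 0.0397). Ube2v2 fell by 0.38 with TAC on the BCAA-free diet (adjusted p = 0.0105), but not without BCAA-free sham 3 (adjusted p = 0.0511).

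Of 14 ubiquitin ligases of muscle, limma and edgeR called 0 with TAC on the control diet, beside 14.8% of all genes by limma. DESeq2 called 2 there, and 2 were at an unadjusted p below 0.05 by limma. With TAC on the BCAA-free diet 3 fell, beside 4.41% of all genes. Fbxo32, also known as atrogin-1 and a driver of muscle protein breakdown, fell by 0.51 ± 0.0831 (adjusted p = 0.00502). Nedd4 fell by 0.24 (adjusted p = 0.0244) and Mdm2, the ligase of p53, by 0.25 (adjusted p = 0.026). Only Fbxo32 stayed called without any 1 of the BCAA-free sham libraries. Trim63, or MuRF1, was higher by 0.50 ± 0.102 in BCAA-free than in control diet TAC hearts (adjusted p = 0.00975). Of the 14, 4 were higher there without control diet TAC 3 and 0 were called without BCAA-free TAC 2. Those leave-outs called 6025 and 1195 of all genes, against 3025 with all libraries.

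None of the 14 core subunits of the 20S proteasome was called by limma, edgeR or DESeq2 in any of the 5 comparisons, with 2 at an unadjusted p below 0.05 for TAC on the BCAA-free diet and 1 called there without BCAA-free TAC 3. Over all genes, 0.675 to 16.8% were called in these comparisons. Without control diet TAC 3, 6 of them were higher in BCAA-free than in control diet TAC hearts, led by Psmb7 (0.38, adjusted p = 0.0041). So were 6 of the 18 subunits of the 19S cap. That leave-out called 6025 of all genes there, against 3025 of 18039 with all libraries. For the difference of TAC responses it called 2 of the 14 and 1 of the 18 higher, beside 1755 of all genes. With all libraries Psmd8 of the 19S cap rose by 0.41 on the control diet (adjusted p = 0.0452) and by 0.23 on the BCAA-free diet (adjusted p = 0.0392), each lost in 5 of 6 leave-outs. Of 5 immunoproteasome and activator genes, Psmb10 was lower on the BCAA-free diet in sham hearts (-0.29, adjusted p = 0.041) and Psmb8 in TAC hearts (-0.51, adjusted p = 0.0169). Psmb10 passed only without control diet sham 2, and Psmb8 failed without BCAA-free TAC 2 or TAC 3 (adjusted p up to 0.0942).

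In the EGF receptor family and its ligands, 10 of 11 listed genes were measured. With TAC on the control diet Hbegf and Ereg rose and Egf fell, beside 9.17% of all genes that rose and 5.64% that fell. Hbegf, the heparin-binding ligand, stood at 2158, 1583 and 2069 normalized reads in BCAA-free TAC hearts, against 1291, 1200 and 1329 in BCAA-free sham hearts. It stood at 2838, 3338 and 3556 in control diet TAC hearts, against 1324, 1372 and 1443 in control diet sham hearts. No TAC library overlapped a sham library, and the BCAA-free TAC libraries lay below the control diet TAC libraries. Hbegf rose by 1.21 ± 0.113 on the control diet (adjusted p = 0.000532) and by 0.59 ± 0.107 on the BCAA-free diet (adjusted p = 0.0086).

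The difference between the Hbegf responses, -0.62 ± 0.166, did not pass (adjusted p = 0.0946), except without control diet TAC 3 (-0.54, adjusted p = 0.0447). Ereg, or epiregulin, a low gene with a mean of 69.5 in the control diet table that was named after its values were seen, rose by 3.12 ± 0.283 on the control diet (adjusted p = 0.000486) and by 2.02 ± 0.408 on the BCAA-free diet (adjusted p = 0.0125). Egf fell by 0.74 ± 0.109 on the control diet (adjusted p = 0.00341), and Nrg1, the neuregulin that acts on Erbb4 in heart muscle, fell by 1.01 ± 0.204 on the BCAA-free diet (adjusted p = 0.012). Nrg1 failed without BCAA-free sham 3 (adjusted p = 0.0542). The receptor Egfr had log2 changes of 0.54 ± 0.242 on the control diet (adjusted p = 0.173) and 0.03 ± 0.13 on the BCAA-free diet (adjusted p = 0.935).

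In TAC hearts, Hbegf was lower on the BCAA-free diet (-0.73 ± 0.141, adjusted p = 0.00814), as was Ereg (-1.84 ± 0.346, adjusted p = 0.00703), and Egf was higher by 0.53 (adjusted p = 0.0344). Egfr was at -0.64 ± 0.219 (adjusted p = 0.0757). Without control diet TAC 3, Egfr was called: a rise of 0.79 with TAC on the control diet (adjusted p = 0.0214) and a lower level in BCAA-free than in control diet TAC hearts (-0.89, adjusted p = 0.000832). In all, 3 members were called for diet in TAC hearts, beside 16.8% of all genes. Without that library 6 were called, Erbb3 (0.34, adjusted p = 0.0269) and Erbb2 (-0.32, adjusted p = 0.0413) among them. Over all genes 6025 were then called, against 3025 with it. Egf did not pass without BCAA-free TAC 1, BCAA-free TAC 2, control diet TAC 1 or control diet TAC 2 (adjusted p up to 0.161). By limma and edgeR no member was called for diet in sham hearts or for the difference of TAC responses, where 1 and 4 were below 0.05 unadjusted and DESeq2 called 1 and 2.

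Of 14 genes that mark hypertrophic growth of heart muscle, 11 rose with TAC on the control diet, where 9.17% of all genes did, with a median log2 change of 1.28 against -0.02 over all genes. On the BCAA-free diet 8 rose, where 3.31% of all genes did, with a median of 0.62 against 0.01. The count was 8 on the control diet without TAC 3, sham 2 or sham 3, and 5 on the BCAA-free diet without TAC 3, sham 2 or sham 3. Over all genes, 4678 were called without control diet TAC 3, 1354 without control diet sham 3 and 546 without BCAA-free sham 3. Ankrd1, a stretch-responsive gene, rose by 1.61 ± 0.239 on the control diet (adjusted p = 0.00346) and by 1.27 ± 0.134 on the BCAA-free diet (adjusted p = 0.00266).

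Acta1, the fetal skeletal actin, rose by 2.53 ± 0.351 on the control diet (adjusted p = 0.00317) and by 3.02 ± 0.334 on the BCAA-free diet (adjusted p = 0.0171). It failed without control diet TAC 3 (adjusted p = 0.061), and on the BCAA-free diet without TAC 3 or any sham library (adjusted p up to 0.0739). In sham hearts Acta1 was the 1 member of the 14 called for diet, lower on the BCAA-free diet, beside 2.27% of all genes. That call held in every leave-out (adjusted p up to 0.0311) but not with all 12 libraries in one fit. The difference between the Acta1 responses to TAC was 0.49 ± 0.54 (adjusted p = 0.744). Nppa, the precursor of atrial natriuretic peptide, rose by 2.84 ± 0.324 on the control diet (adjusted p = 0.00112) and by 1.88 ± 0.268 on the BCAA-free diet (adjusted p = 0.0285), the second lost in 4 of 6 leave-outs. For diet in TAC hearts 4 of the 14 were lower, namely Nppa, Fhl1, Rcan1 and Nmrk2, where 10.5% of all genes were. The median was -0.47. Without control diet TAC 3, 6 were lower and 1 was higher, where 6025 of all genes were called. For the difference of TAC responses Fhl1 was called (-0.92 ± 0.192, adjusted p = 0.0456), in a group whose median was -0.43, but its call was lost in 10 of 12 leave-outs.

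Because Uchl1 marks neurons, nerve genes were set beside it. Of 25 neuron markers, 13 were measured. The 12 that were not analysed here include Th, Slc6a2 and Chat, defining genes of sympathetic or parasympathetic neurons. With TAC on the control diet 2 of 13 rose and 1 fell by limma, beside 9.17% and 5.64% of all genes. Of the same 13, edgeR called 5 and DESeq2 called 6, where they called 2762 and 3629 of 18333 genes. Tubb3, the neuronal beta tubulin, stood at 133, 153 and 251 normalized reads in BCAA-free TAC hearts and 98.1, 134 and 121 in BCAA-free sham hearts, with TAC 1 just below sham 2. It stood at 770, 529 and 505 in control diet TAC hearts, against 172, 164 and 150 in control diet sham hearts, with no overlap. The rise on the control diet was 1.85 ± 0.183 (adjusted p = 0.000664), and in TAC hearts Tubb3 was lower on the BCAA-free diet (-1.75 ± 0.25, adjusted p = 0.00202). Its response to TAC differed by -1.29 ± 0.32 (adjusted p = 0.0766), and passed without control diet TAC 3 (-1.39, adjusted p = 0.0193).

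Prph, the peripherin of peripheral neurons, stood at 22.2, 18.2 and 40.6 normalized reads in BCAA-free TAC hearts and 22.2, 27.5 and 15.1 in BCAA-free sham hearts. It stood at 114, 81.3 and 34.3 in control diet TAC hearts, against 20.4, 13.95 and 19.3 in control diet sham hearts. Its rise of 1.88 ± 0.421 on the control diet (adjusted p = 0.0184) passed only without TAC 3 among the 6 leave-outs (adjusted p up to 0.0762). Dbh, which makes noradrenaline, fell by 1.13 ± 0.226 on the control diet (adjusted p = 0.0116), and Stmn2, which shapes axons, was at 0.37 ± 0.196 (adjusted p = 0.245). On the BCAA-free diet 0 of 8 tested neuron markers were called by limma, edgeR or DESeq2, with 3 higher at an unadjusted p below 0.05. By limma, 7.72% of all genes were called there. Snap25, Syt1, Nefl, Elavl3 and Npy had no values in BCAA-free sham hearts and were tested only in comparisons without that group. The 8 and the 13 are therefore unlike sets.

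Synaptic genes were present in single libraries. Snap25, of the vesicle fusion machinery, stood at 0, 3.4 and 47.9 normalized reads in BCAA-free TAC hearts, at 84.5, 25.7 and 1.7 in control diet TAC hearts, and at 0, 0 and 2.4 in control diet sham hearts. Syt1, the calcium sensor of synaptic vesicles, stood at 1.2, 1.1 and 24.6 in BCAA-free TAC hearts, at 46.4, 35.0 and 0 in control diet TAC hearts, and at 0.974, 1.07 and 0.804 in control diet sham hearts. Both genes were therefore high in BCAA-free TAC 3 and control diet TAC 1 and 2, and at 3.4 or below in the other libraries with values. Among the control diet TAC libraries, Uchl1, Snap25, Syt1, Tubb3 and Prph all ran in the same order, highest in library 1 and lowest in library 3. Of the other measured neuron markers, Stmn2, Nefl, Nefm, Gap43 and Dbh had this order, whereas Slc18a2, Phox2a, Npy and Elavl3 did not. The share of all genes with this order was not computed. Uchl1 stood at 1931 in control diet TAC 3 and at 933.9 in BCAA-free TAC 3. No test was made of this order.

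The summed level of the 8 neuron markers with values in every library ran from 1153 to 1371 normalized reads in BCAA-free TAC, 1039 to 1161 in BCAA-free sham, 1541 to 2302 in control diet TAC and 1191 to 1574 in control diet sham hearts. Without control diet TAC 3, 7 of the 13 were called on the control diet, 6 higher and 1 lower, where 4678 genes were called in all. The 6 include Snap25, Syt1 and Nefl, which had no values in BCAA-free sham hearts. The 10 measured Schwann cell markers, of the glia that wrap nerve fibres, summed to 1773 to 2269, 2028 to 2382, 1992 to 2715 and 2408 to 2476 in the same order of groups. With TAC on the control diet 1 of these 10 was called, higher, beside 9.17% of all genes. The log2 changes were positive for 3 and negative for 7, with a median of -0.11. Without control diet TAC 3, 1 was called higher and 1 lower there. For diet in TAC hearts 2 of the 10 were lower on the BCAA-free diet, beside 10.5% of all genes. Prx rose by 0.91 ± 0.178 with TAC on the control diet (adjusted p = 0.0106) and was lower on the BCAA-free diet in TAC hearts (-0.97 ± 0.179, adjusted p = 0.00672). S100b was also lower on the BCAA-free diet in TAC hearts (-0.59, adjusted p = 0.0373), a call lost in 5 of 6 leave-outs. The part of nerve cells in the Uchl1 levels was not tested beyond these values.

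**Figure D4:**
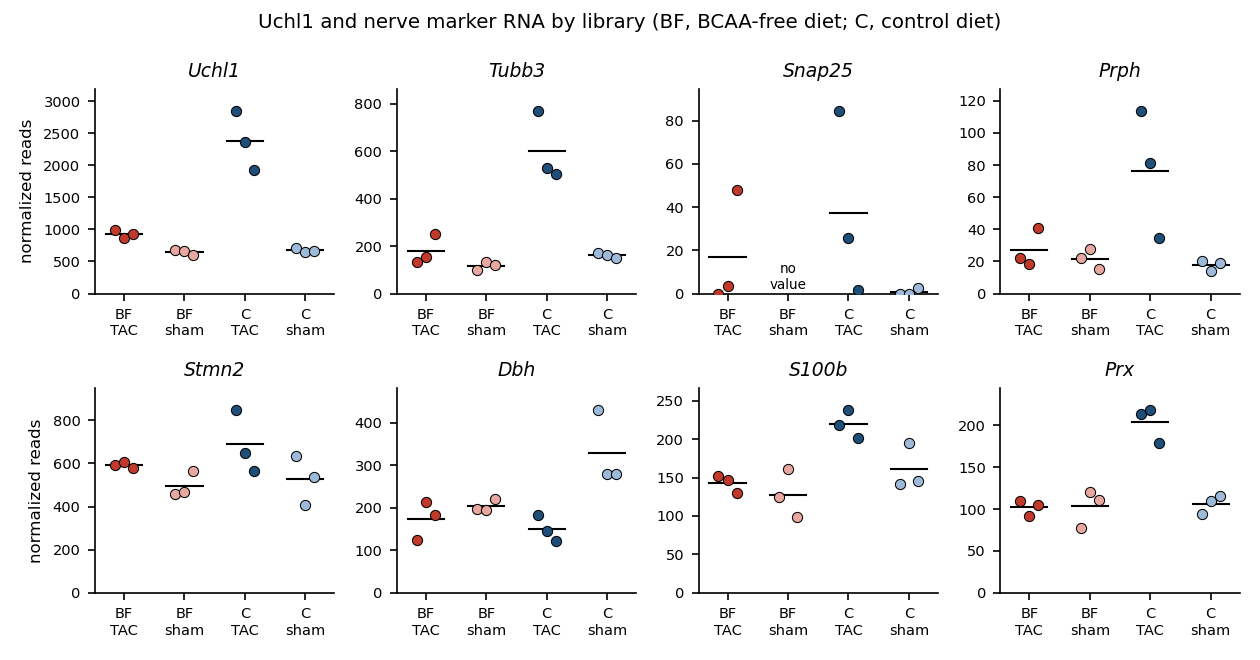
Normalized reads of Uchl1, 5 neuron markers (Tubb3, Snap25, Prph, Stmn2, Dbh) and 2 Schwann cell markers (S100b, Prx) in each library, with group means as lines. BF is the BCAA-free and C the control diet, and each panel has its own axis from 0. Snap25 has no value in BCAA-free sham hearts. Tubb3 is highest in the 3 control diet TAC libraries (505 to 770), whereas Snap25 is high in 2 of them and in BCAA-free TAC 3.

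The summed markers of fibroblasts, activated fibroblasts and macrophages were, like Uchl1, highest in every control diet TAC library. The 8 fibroblast markers summed to 68600 to 75093 normalized reads in BCAA-free TAC, 56820 to 60263 in BCAA-free sham, 107087 to 140607 in control diet TAC and 58345 to 72953 in control diet sham hearts. Of these, 6 rose with TAC on the control diet, beside 9.17% of all genes, or 3 without TAC 1, sham 2 or sham 3. Calls over all genes moved as well, from 2710 to 1354 without control diet sham 3. In BCAA-free hearts TAC raised 4 and lowered 1, beside 3.31% and 4.41% of all genes, and 3 were called without sham 1 or sham 3. In TAC hearts 5 of 8 were lower on the BCAA-free diet, beside 10.5% of all genes, or 3 without BCAA-free TAC 2. Without that library 1195 of all genes were called, against 3025 with it. The 7 activated fibroblast markers summed to 12130 to 21798 normalized reads in BCAA-free TAC, 5771 to 7531 in BCAA-free sham, 64869 to 133816 in control diet TAC and 9674 to 11418 in control diet sham hearts. Of these, 6 rose with TAC on the control diet and 4 on the BCAA-free diet, beside 9.17% and 3.31% of all genes. The 4 became 1 without BCAA-free TAC 3, sham 1 or sham 3. In TAC hearts 6 of 7 were lower on the BCAA-free diet, beside 10.5% of all genes. In sham hearts 3 of these 7 and 1 of the 8 fibroblast markers were lower on the BCAA-free diet, beside 2.27% of all genes. Of the 3, the calls of Cilp and Meox1 each held in 3 of 6 leave-outs. The sums of the 7 did not overlap between the sham groups, whereas Uchl1 did. Cthrc1 and Thbs4, matrix-associated proteins of injured tissue, also differed in their response to TAC, by -2.99 ± 0.456 (adjusted p = 0.0147) and -2.14 ± 0.3 (adjusted p = 0.0109). Over all genes 0.675% were called there. Without control diet TAC 3, 6 of the 7 were called lower, beside 1755 of all genes called. The 8 macrophage markers summed to 19728 to 24609, 16921 to 19600, 33321 to 36362 and 17830 to 23706 in the same order of groups. With TAC, 5 of these 8 rose on the control diet and 3 on the BCAA-free diet, beside 9.17% and 3.31% of all genes. For the difference of TAC responses 0 of the 8 were called, beside 0.675%. Without control diet TAC 3, 1 was lower, beside 1755 of all genes called. For diet in TAC hearts 8 of 8 were lower on the BCAA-free diet, beside 10.5% of all genes. That became 5 without any 1 of BCAA-free TAC 2, TAC 3, control diet TAC 1 or TAC 2.

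The 6 epicardial markers had sums of 812 to 984, 449 to 742, 1468 to 1743 and 636 to 942 in the same order of groups, but their members went both ways. For diet in TAC hearts, Krt18, Krt8 and Wt1 were lower on the BCAA-free diet, and Upk3b (0.86, adjusted p = 0.0326) and Msln (0.95, adjusted p = 0.0431) were higher, with a median of -0.06. Over all genes, 10.5% were lower there and 6.23% higher. Upk3b and Msln were named after their values were seen. Without control diet TAC 3, Krt19 was higher as well (1.07, adjusted p = 0.0285), and without BCAA-free TAC 2, BCAA-free TAC 3 or control diet TAC 2, 3 of the 6 were called. The 8 cardiomyocyte markers, which include Myh6 and Tnnt2 and check the labelled tissue, summed to 6198317 to 6490826, 6084105 to 6600633, 4103976 to 4760809 and 5538357 to 5881295, lowest in every control diet TAC library. For diet in TAC hearts 5 of these 8 were higher on the BCAA-free diet, beside 6.23% of all genes. Without control diet TAC 3, 6 were higher there, beside 6025 of all genes called. With TAC on the control diet 1 was lower, beside 5.64% of all genes, or 5 without control diet TAC 3, where 4678 were called. On the BCAA-free diet 1 was higher and 1 lower with TAC, beside 3.31% and 4.41%. For the difference of TAC responses 0 of these 8 were called, beside 0.675% of all genes. Without control diet TAC 3, 3 were higher, beside 1755 of all genes called. Sums of the 3 atrial markers with values in every library ran from 3741 to 34331 and overlapped between control diet TAC and control diet sham hearts. On the BCAA-free diet they ran from 21338 to 25005 in TAC hearts and from 6776 to 15264 in sham hearts. There limma called 0 of the 3 tested, beside 7.72% of all genes, with 3 at an unadjusted p below 0.05. Without BCAA-free sham 2, 3 were called. Endothelial markers overlapped between all groups that differ in 1 factor, except on the control and BCAA-free diets in sham hearts, where 89389 to 100873 lay below 102118 to 115895. In sham hearts 1 of the 7, Cdh5, was lower on the BCAA-free diet, beside 2.27% of all genes, a call kept in 1 of 6 leave-outs. For diet in TAC hearts 0 of 7 were called, beside 16.8% of all genes. Without control diet TAC 3, 1 was higher and 2 were lower, beside 6025 of all genes called. The part of these cells in the Uchl1 levels was not tested.

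Of the nearest measured protein-coding genes on chromosome 5, limma called Limch1 and Rbm47 in some comparison. Apbb2, which ends 57307 bases before Uchl1, had a log2 change of -0.07 ± 0.102 with TAC on the control diet and -0.24 ± 0.0876 with diet in TAC hearts, neither called. Limch1, which starts 58593 bases after it, was at -0.29 ± 0.106 and 0.22 ± 0.1. It fell by 0.27 with TAC on the BCAA-free diet (adjusted p = 0.0125), but not without BCAA-free sham 2 (adjusted p = 0.061). Rbm47, an RNA-binding protein gene 502973 bases away, rose by 0.97 ± 0.222 with TAC on the control diet (adjusted p = 0.0197) and was lower in BCAA-free than in control diet TAC hearts (-1.53 ± 0.255, adjusted p = 0.00404). The rise failed without control diet TAC 2, sham 1 or sham 3 (adjusted p up to 0.0669). Nsun7, Tmem33 and Slc30a9 were not called in any comparison that tested them.

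The genes whose profile lay nearest to that of Uchl1 were found by the root mean square difference of log2(normalized reads + 1), each gene centred on its own mean over the 12 libraries. Among 12827 genes with a mean of at least 50, the nearest was Pak1, a p21-activated kinase, at 0.139. Fxyd5, a regulator of the sodium pump, followed at 0.157, Ctsk, the collagen-degrading cathepsin K, at 0.159, Cercam at 0.165 and Mmp23, a membrane-bound metalloproteinase, at 0.170. Ism1, Srpx2, Srpx, Clu and Tsku completed the 10, the last at 0.186. The median over all genes was 0.775, and the root mean square of Uchl1 about its own mean was 0.762.

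These 10 genes differed widely in level while sharing the profile. Pak1 stood at 138, 115 and 124 normalized reads in BCAA-free TAC, 90.0, 95.0 and 88.3 in BCAA-free sham, 375, 347 and 274 in control diet TAC and 98.3, 120 and 111 in control diet sham hearts. Clu, the chaperone clusterin, stood at 63693, 60231 and 70179 in BCAA-free TAC and at 156942, 156935 and 111403 in control diet TAC hearts. For the 10 genes, log2 changes with TAC were 1.38 to 1.80 on the control diet and 0.35 to 0.67 on the BCAA-free diet, beside 1.78 and 0.52 for Uchl1. Because likeness chose them, these ranges are descriptions and no test was made of them. Ranked instead by Pearson's correlation over the 12 libraries, which does not weigh the size of a change, the first 10 shared 3 genes with this list (Pak1, Fxyd5 and Mmp23) and were led by Nt5c, Npc2 and Lox. All these points share the same 12 libraries and their depths.

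**Figure D5:**
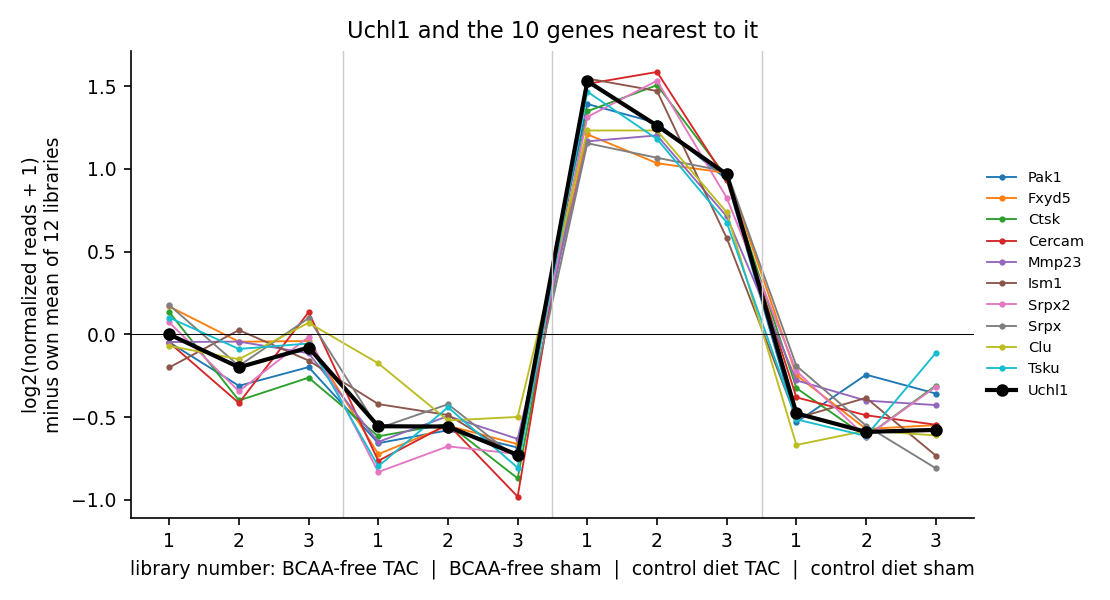
Log2(normalized reads + 1) minus each gene's mean over the 12 libraries, for Uchl1 (thick black line) and the 10 genes nearest to it. Libraries run by group along the axis with their replicate numbers, and lines join libraries only to guide the eye. All 11 genes are above 0.5 in the 3 control diet TAC libraries and below 0.2 in every other library.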

How the data were processed

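Per the submitters' processing notes, the tools were STAR 2.5.2b, Subread 1.5.2, Trimmomatic 0.36 and DESeq2 without a version, with GRCm38 and mm10 as builds. What each tool did, the annotation and the strand setting are not given there. The authors deposited 4 tables, 1 per pair of groups, with a signal (normalized count) per library, log2 fold changes, p-values and adjusted p-values, per the file headers. Each deposited signal value was a whole number of reads over a size factor for the library in that table. Within 0.0001 read, 100% of 431838 values came out whole. The lowest gene listed had 61 reads summed over the 6 libraries of a table.

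Groups and replicate numbers came from the labels. Tests used limma 3.58.1 (limma-trend, robust, R 4.3.3) on log2(value + 1), which understates changes of low genes, for genes with a mean of at least 10, with Benjamini-Hochberg adjustment over all genes. Each pair was fitted alone in its own table, and the difference of TAC responses in 12 libraries with 4 group means. Levels are recovered reads over TMM size factors (edgeR 4.0.16) set jointly over the 12 libraries, so ratios can differ from fold changes. Annotation was GENCODE M21, which held 18547 of 18604 genes. The scripts were tested on simulated data.

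Uchl1 and the 20 gene lists were chosen with earlier results of these data known. Named genes are the C-terminal hydrolases and ubiquitin genes (a few genes under this rule are not reported here), up to 3 called members of each other pathway list per comparison, called and abundant nerve markers, up to 2 called members of other marker lists, neighbours, and the 10 genes nearest to Uchl1, with a mean of at least 50. Snap25, Syt1, Nefl, Nefm, Gap43, Elavl3, Npy, Phox2a, Egfr, Erbb2, Erbb3, Ereg, Upk3b, Msln, Krt19 and Psmb7 were named after their values were seen. Alternatives were a pseudocount of 0.5, no filter, joint TMM or DESeq2 size factors, edgeR and DESeq2 1.42.0 on recovered reads, a replicate block, all 12 libraries in one fit, and leaving out each library.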

Additional observations from a re-analysis of the deposited data

Results flagged for a closer look

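Among the listed genes, 5 had responses to TAC that differed between the diets by a test of the difference itself (limma, BCAA-free minus control diet response, adjusted p below 0.05). Fhl1, a hypertrophic marker, differed by -0.92 in log2 units, Mfap5, a fibroblast marker, by -1.21, Thbs4 by -2.14, Cthrc1 by -2.99 and Krt18, an epicardial keratin, by -2.75. All 5 rose more on the control diet, the direction of Uchl1, whose own difference was described without a test. Over all 17493 genes tested 118 were called, 88 of them lower, as these 5 were, and 30 higher. The lists were chosen with earlier results known, so the shared direction is only a description. Krt18 stood at 116, 60.2 and 49.2 normalized reads in BCAA-free TAC, 53.6, 38.2 and 45.4 in BCAA-free sham, 651, 547 and 428 in control diet TAC and 49.7, 51.5 and 50.7 in control diet sham hearts. Krt18 and Thbs4 passed in 12 of 12 leave-outs, Cthrc1 in 11 (adjusted p = 0.0597 without BCAA-free sham 2), Mfap5 in 5 (adjusted p up to 0.0882) and Fhl1 in 2 (adjusted p up to 0.154).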

How the results depend on the processing

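The Uchl1 values kept their sign and moved little under every alternative run. With a library left out, the log2 change ran from 1.65 to 1.91 for TAC on the control diet, 0.46 to 0.57 for TAC on the BCAA-free diet, -0.09 to -0.00 for diet in sham hearts, -1.45 to -1.19 for diet in TAC hearts and -1.40 to -1.13 for the difference. Group means ran from 896.8 to 960.4 (BCAA-free TAC), 633.1 to 671.0 (BCAA-free sham), 2148 to 2608 (control diet TAC) and 658.5 to 685.1 (control diet sham). Numbers of genes called moved more. With a library left out they ran from 1354 to 4678, 546 to 1257, 50 to 1071, 1195 to 6025 and 16 to 1755 in the same order of comparisons, the extremes going with control diet sham 3 and TAC 3, BCAA-free sham 3 and TAC 2, BCAA-free sham 1 and control diet sham 2, BCAA-free TAC 2 and control diet TAC 3, and BCAA-free sham 2 and control diet TAC 3. One fit of all 12 libraries called 4436 genes for TAC on the control diet, 309 for TAC on the BCAA-free diet, 169 for diet in sham hearts and 4517 for diet in TAC hearts. DESeq2 called 1529 for diet in sham hearts and 809 for the difference. The causes were not tested.

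Residuals of same-numbered libraries correlated at -0.17 to 0.03, and those of differently numbered libraries at -0.06 to 0.15. Residuals about a mean of 3 libraries are tied to one another, so these values cannot show whether replicate numbers mark pairs. A fit with the replicate number as a block called 1873 genes for TAC on the control diet, 623 for TAC on the BCAA-free diet, 276 for diet in sham hearts, 2037 for diet in TAC hearts and 50 for the difference. Of 116 calls of named genes, 68 held in every leave-out and 75 under every other alternative, and none changed sign.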
